A study of Mus musculus with 45 samples.

Results

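The BCL2 family and the death receptor DR5 were followed through 10 genes, chosen as the rows of the count table whose symbol is Bbc3, Pmaip1, Bcl2l11, Bid, Bax, Bak1, Mcl1, Bcl2l1, Bcl2 or Tnfrsf10b. These are 10 of the 28454 genes listed. Each symbol named a single row. Of the 10 genes, 9 passed the filter on low counts in every model, and Pmaip1 did not.

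Polyadenylated RNA of mouse mammary tumour cell lines was sequenced in 45 libraries, with 3 cultures of each line and medium. MYAZ16_1e, MYAZ12_3i and MYAZ6_6g (the MYAZ subtype) and Myc310 were derived from mammary tumours of MMTV-cMYC mice, in which the MMTV promoter drives MYC in mammary epithelium, so MYC is shared by all groups. LM1, LM2 and LM3 (the LM subtype) were recovered from lungs after Myc310 cells were injected into the mammary fat pad, and LM1_LM, LM2_LM and LM3_LM (the LM_LM subtype) from lungs after a further fat pad passage. All 10 lines were measured in control medium (30 libraries), MYAZ16_1e, Myc310, LM1 and LM1_LM also after 6 h without cysteine and cystine (12 libraries), and MYAZ12_3i_NDI1, a MYAZ12_3i line whose label carries NDI1, in control medium (3 libraries). Myc310 is a single line, and the LM lines descend from it. Cultures of a line are technical replicates by the series' own description, so p-values from them measure the spread between cultures. Library totals in the count table ran from 19517859 to 29019988. In bulk RNA, fewer cells that express a gene and less RNA per cell cannot be told apart.

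The labelled cell type was checked against marker lists. Of 10 mammary epithelial markers, Krt8 (219 to 1704 TMM-scaled CPM, a count relative to the scaled library total, as group means) and Krt18 (99.0 to 546 CPM) were high in every group. Epcam reached at most 0.673 CPM and Cdh1 at most 0.268 CPM, and Elf5 was at or near 0 throughout, so defining markers of mature mammary epithelium were nearly absent. Ptprc, the pan-leukocyte marker, stayed at or below 0.0909 CPM.

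The family decides whether mitochondria are permeabilised. BH3-only proteins (PUMA from Bbc3, BIM from Bcl2l11, BID from Bid, NOXA from Pmaip1) engage the other members, BAX and BAK form the pores that release cytochrome c, and MCL1, BCL-XL (Bcl2l1) and BCL2 hold them in check. DR5, the mouse TRAIL receptor encoded by Tnfrsf10b, starts the extrinsic route, which BID links to mitochondria. In amino acid shortage and endoplasmic reticulum stress, ATF4 and CHOP are known regulators of BH3-only and death receptor genes, and p53 is a known regulator of Bbc3, Pmaip1 and Bax.

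Sequences before the transcription starts are shown for Bbc3, which rose most on deprivation, Bcl2l11, whose response differed between lines, and Bax, whose level separated the subtypes. They were taken from RefSeq (GRCm38.p6), which gave 13 windows for 8 of the 10 genes, and the 250 bases before each start were searched on both strands. Capitals mark the motifs found, which were an E-box (CACGTG), the motif bound by MYC and its partners, a forkhead (FOXO) motif (GTAAACA or its reverse complement) and a decamer of the p53 response element. The lines give Bbc3 before the start at 16310261 (chr7:16310011-16310180, plus strand, the part that does not overlap the next window), Bbc3 before the start at 16310431 (chr7:16310181-16310430, plus strand), Bcl2l11 (chr2:128125788-128126037, plus strand) and Bax (chr7:45466899-45467148, minus strand).
Bbc3, start 16310261: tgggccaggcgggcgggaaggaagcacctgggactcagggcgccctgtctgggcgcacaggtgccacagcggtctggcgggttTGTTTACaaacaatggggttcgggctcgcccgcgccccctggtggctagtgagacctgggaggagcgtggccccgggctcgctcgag
Bbc3, start 16310431: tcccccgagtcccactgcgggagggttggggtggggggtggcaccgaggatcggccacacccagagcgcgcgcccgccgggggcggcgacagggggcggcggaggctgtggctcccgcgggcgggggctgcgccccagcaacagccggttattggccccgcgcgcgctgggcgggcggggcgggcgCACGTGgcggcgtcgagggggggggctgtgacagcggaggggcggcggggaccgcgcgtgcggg
Bcl2l11, start 128126038: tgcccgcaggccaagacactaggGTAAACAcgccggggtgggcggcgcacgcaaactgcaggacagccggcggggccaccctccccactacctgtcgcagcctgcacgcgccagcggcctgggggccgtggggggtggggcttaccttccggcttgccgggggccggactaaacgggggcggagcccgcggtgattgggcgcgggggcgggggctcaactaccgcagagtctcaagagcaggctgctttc
Bax, start 45466898: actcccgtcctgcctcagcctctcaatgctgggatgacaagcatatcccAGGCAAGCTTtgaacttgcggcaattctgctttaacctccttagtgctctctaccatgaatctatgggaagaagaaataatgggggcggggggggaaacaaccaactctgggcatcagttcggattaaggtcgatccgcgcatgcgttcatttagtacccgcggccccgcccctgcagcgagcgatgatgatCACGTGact
The E-box stood 64 bases before the Bbc3 start at 16310431 and 9 bases before the Bax start. Among all 32851 windows, 6.02% held an E-box, 3.17% the forkhead motif and 7.13% the p53 decamer. The composite ATF4 and CHOP motif TGATGNAA, present in 3.45% of windows, was in none of the 13 windows of these genes. None of the motifs overlapped another. Only windows that held a motif are shown. The remaining windows held none, among them that of Bid and a further one each of Bbc3 and Bcl2l11. A match describes letters in a window and not binding.

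Cysteine/cystine deprivation was compared with control medium in each of MYAZ16_1e, Myc310, LM1 and LM1_LM, to ask how lines of different metastatic potential respond to loss of the amino acid. Bbc3 rose about 3-fold in all 4 lines, and Bcl2l1 also rose in all 4, while Bak1 and Tnfrsf10b fell in all 4. Bcl2l11, Bid and Bcl2 went opposite ways, upward in MYAZ16_1e and downward in LM1 and LM1_LM. The calls of Bcl2l11 in MYAZ16_1e and of Bcl2 in LM1 were lost in some alternative fits. Mcl1 rose in Myc310, LM1 and LM1_LM and Bax fell in these lines, without a call for either in MYAZ16_1e. At a Benjamini-Hochberg adjusted p under 0.05 in edgeR's quasi-likelihood test, 7 of the 9 tested genes passed in MYAZ16_1e (5 higher, 2 lower), 8 in Myc310 (4 and 4), and 9 in both LM1 and LM1_LM (3 and 6 each).

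Most of the transcriptome passed the same threshold, and these counts must be read against it. Of 13400 genes tested, 53.7% were called in MYAZ16_1e (26.6% higher and 27.1% lower), 66.8% in Myc310 (32.8% and 33.9%), 71.1% in LM1 (35.8% and 35.3%) and 72.4% in LM1_LM (36.5% and 35.9%). The median log2 fold change of the 9 genes was 0.15, 0.07, -0.26 and -0.30 in that order of lines, beside a median over all genes between -0.01 and 0. Being called is therefore close to the rule for any gene here, and the sizes and directions of the single genes carry the description.

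**Figure D1:**
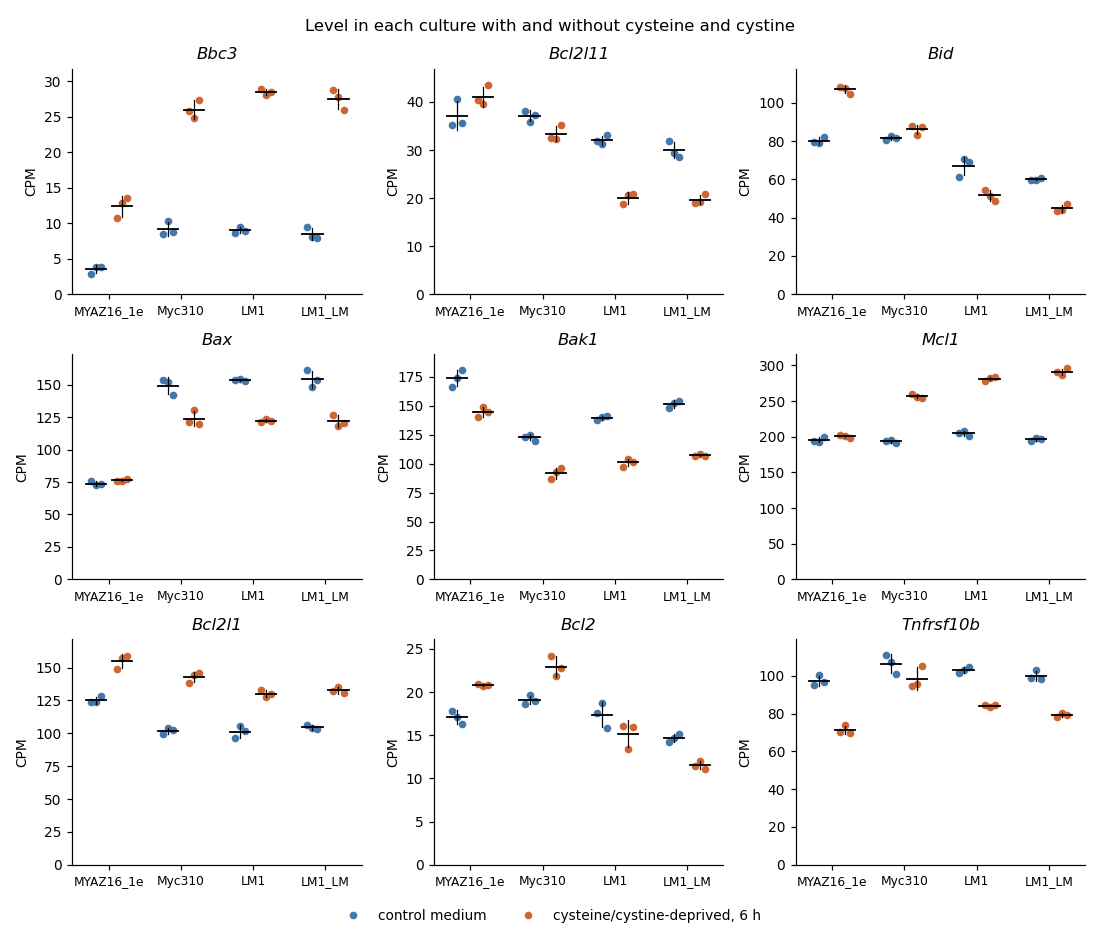
TMM-scaled CPM of 9 genes in each culture of 4 lines, in control medium (blue) and after 6 h without cysteine and cystine (orange). Points are cultures, horizontal bars the mean of 3 and vertical bars the SD; Bbc3 is separated in every line, and Mcl1 in every line but MYAZ16_1e.

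Among the BH3-only genes, Bbc3 (ENSMUSG00000002083, chr7:16308393-16318205, plus strand) encodes PUMA, which binds all the anti-apoptotic members. In MYAZ16_1e its level was 2.81, 3.85 and 3.87 CPM in control medium and 10.7, 12.9 and 13.6 CPM after deprivation. In Myc310 it was 8.40, 10.3 and 8.74 CPM against 25.8, 24.9 and 27.4 CPM. LM1 cultures had 8.61, 9.44 and 8.87 CPM in control medium and 28.99, 28.1 and 28.6 CPM without cysteine and cystine. No deprived culture overlapped a control culture of its line, and the highest deprived MYAZ16_1e culture stayed below the lowest deprived culture of the other 3 lines. LM1_LM gave 9.47, 8.06 and 7.88 CPM against 28.7, 27.8 and 25.9 CPM. The log2 fold change was 1.80 in MYAZ16_1e (95% interval 1.57 to 2.03), 1.497 in Myc310 (1.31 to 1.68), 1.70 in LM1 (1.52 to 1.89) and 1.74 in LM1_LM (1.55 to 1.92), with adjusted p-values from 5.15e-17 to 2.84e-14 in edgeR. Mean deprived over mean control levels came to 3.53, 2.85, 3.18 and 3.25.

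Bcl2l11 (ENSMUSG00000027381, chr2:128126038-128162547, plus strand) encodes BIM, an activator of BAX and BAK. MYAZ16_1e cultures had 35.2, 40.6 and 35.6 CPM in control medium and 40.3, 39.5 and 43.5 CPM after deprivation. These ranges overlapped, and the small rise (log2 fold change 0.15, adjusted p = 0.0309 in edgeR) was called under 6 of 11 alternatives. Control replicate 3 of MYAZ16_1e was the deepest library of all, at 29019988 counts, and its library number is out of run with the others. Leaving it out alone ended the call (log2 fold change 0.11, adjusted p = 0.162). In LM1 the level was 31.8, 31.2 and 33.03 CPM against 18.7, 20.6 and 20.9 CPM, and in LM1_LM 31.9, 29.4 and 28.6 CPM against 18.99, 19.2 and 20.8 CPM. Every deprived culture of these 2 lines was below every control culture (log2 fold change -0.64 in LM1 and -0.57 in LM1_LM, adjusted p = 2.71e-10 and 2.41e-09). Myc310 lay between, with 38.2, 35.9 and 37.4 CPM against 32.6, 32.4 and 35.2 CPM (log2 fold change -0.17, adjusted p = 0.0124), a call lost without the replicates numbered 1 (adjusted p = 0.119).

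Bid (ENSMUSG00000004446, chr6:120891930-120916853, minus strand) encodes the protein that caspase-8 cleaves to carry a death receptor signal to mitochondria. In MYAZ16_1e it went from 79.4, 78.8 and 82.3 CPM to 109, 108 and 105 CPM (log2 fold change 0.41 ± 0.04 SE, adjusted p = 7.89e-10). LM1 showed the opposite, from 61.4, 70.6 and 69.0 CPM to 54.5, 51.4 and 48.9 CPM (-0.34 ± 0.05 SE, adjusted p = 6.29e-08). LM1_LM did too, from 59.7, 59.7 and 60.6 CPM to 43.6, 43.8 and 47.0 CPM (-0.38 ± 0.05 SE, adjusted p = 9.58e-09). The media did not overlap in any of these lines. For Myc310, 80.4, 82.6 and 81.6 CPM stood against 88.0, 83.2 and 87.2 CPM, with a log2 fold change of 0.07 (interval -0.02 to 0.15, adjusted p = 0.161), although the media did not overlap there either and a fit to the Myc310 libraries alone gave an adjusted p of 0.0490. Bid shares part of its locus with Bcl2l13 on the other strand, as Bak1 does with Ggnbp1 and Bcl2 with D630008O14Rik, and whether the counting used strand is not given in the sources used here. On the same strand, Bid overlaps Gm44260, Bax overlaps Gm45808, and Bcl2 overlaps Gm37053 and Mir3473f, which strand does not separate.

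Pmaip1 (ENSMUSG00000024521), which encodes NOXA, the BH3-only partner of MCL1, was close to absent. It had 0 counts in all 24 libraries of the LM and LM_LM lines, in both media. MYAZ16_1e had 0 or 1 count in control medium and 0, 0 and 3 counts after deprivation. Myc310 had 2 to 6 counts in control medium and 5 to 13 after deprivation (0.169 ± 0.072 and 0.359 ± 0.186 CPM, SD, n = 3), and these overlapped. The most reads were in MYAZ12_3i, with 21, 7 and 9 counts. With no filter beyond 1 count, edgeR called Pmaip1 lower in LM and LM_LM than in MYAZ in control medium (adjusted p = 6.89e-04 and 5.81e-04), a call not made with counts summed per line (0.0787 and 0.0710). A count of 0 allows up to 3 counts, which was 0.103 to 0.154 CPM at these depths, and counting error is all that this limit covers. Where counts were 0, a response of Pmaip1 below this limit was not detectable. In Myc310, where every library had reads, no response was called with no filter beyond 1 count (adjusted p = 0.51 in edgeR), at very low counts.

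The effectors behaved alike in 3 of the 4 lines. Bax (ENSMUSG00000003873, chr7:45461697-45466898, minus strand) had 75.6, 72.6 and 73.5 CPM in control MYAZ16_1e and 75.7, 76.0 and 77.4 CPM after deprivation, a log2 fold change of 0.04 (interval -0.04 to 0.12, adjusted p = 0.376). In Myc310 it fell from 154, 152 and 142 CPM to 121, 130 and 120 CPM. LM1 went from 153, 154 and 153 CPM to 121, 124 and 122 CPM, and LM1_LM from 161, 148 and 154 CPM to 127, 118 and 121 CPM. The decreases were close in size (log2 fold change -0.29, -0.29 and -0.30, each with an SE of 0.04). Bak1 (ENSMUSG00000057789, chr17:27019810-27029009, minus strand), the other pore former, fell in all 4 lines without overlap. Its mean level changed for MYAZ16_1e from 174 to 145 CPM, for Myc310 from 123 to 91.8 CPM, for LM1 from 140 to 101 CPM, and for LM1_LM from 152 to 107 CPM, with log2 fold changes of -0.27, -0.43, -0.43 and -0.46.

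Among the anti-apoptotic genes, Mcl1 (ENSMUSG00000038612, chr3:95658788-95663176, plus strand) encodes a short-lived protein that restrains BAK and binds NOXA and PUMA. In MYAZ16_1e its level was 195, 193 and 200 CPM in control medium and 202, 201 and 199 CPM after deprivation, overlapping (log2 fold change 0.03, interval -0.02 to 0.07, adjusted p = 0.322). Myc310 cultures went from 194, 195 and 192 CPM to 260, 256 and 254 CPM. LM1 went from 206, 208 and 201 CPM to 279, 283 and 283 CPM, and LM1_LM from 194, 198 and 197 CPM to 290, 287 and 296 CPM. The rise was larger in the order Myc310 (0.39 ± 0.02 SE), LM1 (0.49 ± 0.02 SE) and LM1_LM (0.61 ± 0.02 SE), and the differences between these lines were not tested.

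Bcl2l1 (ENSMUSG00000007659, chr2:152780668-152831728, minus strand), the gene of BCL-XL, rose in all 4 lines with no overlap between media. Mean levels in the 2 media were, for MYAZ16_1e, 125 and 155 CPM, for Myc310, 102 and 143 CPM, for LM1, 101 and 130 CPM, and for LM1_LM, 105 and 133 CPM, with log2 fold changes of 0.30, 0.47, 0.39 and 0.38. Gene-level counts do not separate its long anti-apoptotic and short pro-apoptotic isoforms. Bcl2 (ENSMUSG00000057329, chr1:106538178-106714274, minus strand) was the lowest of the anti-apoptotic genes. It rose in MYAZ16_1e (16.3 to 17.8 CPM in control medium, 20.8 to 20.9 CPM deprived; log2 fold change 0.28) and in Myc310 (18.6 to 19.6 and 21.9 to 24.2 CPM; 0.25). It fell in LM1_LM (14.2 to 15.1 and 11.1 to 12.0 CPM; -0.31, adjusted p = 5.15e-04 in edgeR). In LM1 the media overlapped (15.9 to 18.7 and 13.4 to 16.1 CPM), and the log2 fold change of -0.16 passed narrowly (adjusted p = 0.0469). That call was lost under 6 of 11 alternatives, with adjusted p up to 0.784 when the replicates numbered 1 or 2 were left out in turn. The rise in Myc310 was lost without the replicates numbered 1 (adjusted p = 0.0719).

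Tnfrsf10b (ENSMUSG00000022074, chr14:69767472-69784411, plus strand), the receptor gene, fell in every line and most in MYAZ16_1e. There it went from 95.2, 100.4 and 96.7 CPM to 70.2, 74.0 and 69.9 CPM (log2 fold change -0.46, adjusted p = 2.40e-11 in edgeR). LM1 went from 102 to 104 CPM down to 83.8 to 84.5 CPM (-0.26), and LM1_LM from 98.2 to 103 CPM down to 78.2 to 80.4 CPM (-0.30). The 2 media did not overlap in these 3 lines. In Myc310 they did, with 101 to 111 CPM against 94.6 to 105 CPM (-0.12, adjusted p = 0.0042), and the call was lost without the replicates numbered 1 or those numbered 2 (adjusted p up to 0.248).

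**Figure D2:**
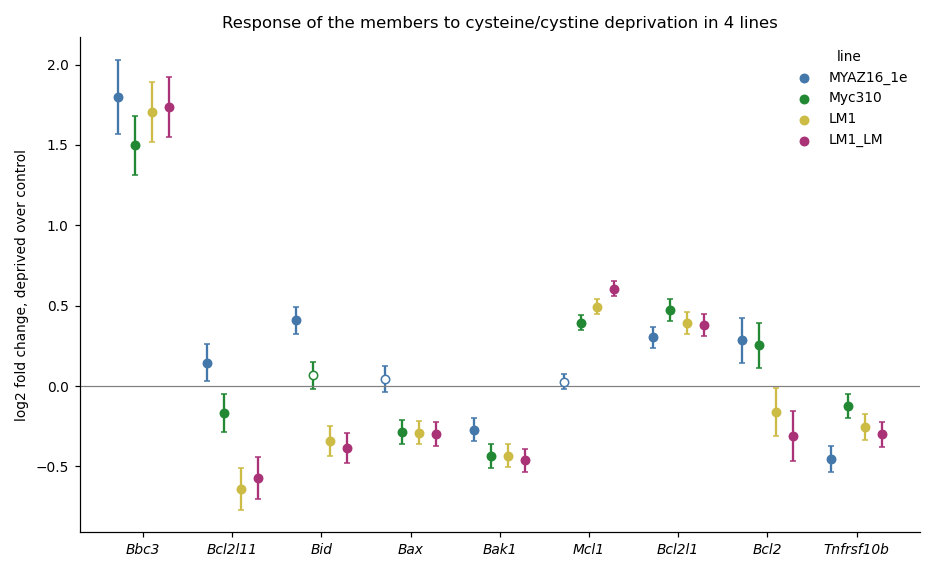
Log2 fold change of deprived over control medium for 9 genes in 4 lines, with 95% intervals from edgeR. Filled points have an adjusted p under 0.05 and open points do not. Bbc3 lies at 1.497 to 1.80 in all lines, and Bcl2l11, Bid and Bcl2 change sign between MYAZ16_1e and the LM1 and LM1_LM lines. The calls of Bcl2l11 in MYAZ16_1e and of Bcl2 in LM1 were lost in some alternative fits.

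Whether a line responded differently from MYAZ16_1e was tested directly with interaction contrasts. Myc310, LM1 and LM1_LM form a single lineage, so descent and metastatic potential cannot be told apart here. These 3 contrasts share the MYAZ16_1e libraries, so their values stand side by side and are not independent. In each of them 7 of the 9 genes passed, against 40.3% of all genes for Myc310, 52.2% for LM1 and 54.8% for LM1_LM. Bbc3 was not called in any, with a difference in log2 fold change of -0.30 in Myc310 (interval -0.60 to 0.00356, adjusted p = 0.111), -0.09 in LM1 (-0.40 to 0.21) and -0.06 in LM1_LM (-0.36 to 0.24). The intervals leave room for differences of up to 0.60 on the log2 scale.

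Response differences against MYAZ16_1e were widest for Bid and Bcl2l11 in LM1 and LM1_LM, and for Mcl1 in Myc310. For Bid they were -0.34 in Myc310, -0.75 in LM1 and -0.79 in LM1_LM (adjusted p = 1.93e-05, 9.32e-12 and 2.75e-12 in edgeR). For Bcl2l11 they were -0.31, -0.78 and -0.72. Both genes thus fell relative to MYAZ16_1e in all 3 lines. Bax had near equal differences of -0.33, -0.33 and -0.34, and Bak1 smaller ones of -0.16, -0.16 and -0.19. Mcl1 differed upward, by 0.37, 0.47 and 0.58, and Tnfrsf10b likewise by 0.33, 0.20 and 0.16, which for Tnfrsf10b means a smaller decrease. Upper-quartile normalization ended the Tnfrsf10b call in LM1 and LM1_LM, with an adjusted p of 0.0665 and 0.298, and the call in LM1_LM was also lost when the replicates of any single number were left out (adjusted p from 0.0541 to 0.0607). Leaving out the replicates numbered 1 ended the Bcl2l11 call in Myc310 (adjusted p = 0.0506), and 1 or more such exclusions ended those of Bak1 in Myc310 and LM1 (up to 0.164 and 0.061). Bcl2l1 differed in Myc310 (0.17, adjusted p = 0.00362), and Bcl2 in LM1 (-0.45) and LM1_LM (-0.60).

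Levels between genes were set side by side per length, as CPM per kilobase of merged exons. In control MYAZ16_1e the order was Bak1 (72.2 ± 2.93 CPM per kilobase, SD, n = 3), Mcl1 (57.3 ± 1.12), Bax (46.9 ± 0.98), Bcl2l1 (27.3 ± 0.56), Bid (22.6 ± 0.52) and Tnfrsf10b (17.9 ± 0.49). Bcl2l11 (4.62 ± 0.37), Bcl2 (1.87 ± 0.085) and Bbc3 (1.65 ± 0.29) were more than 3 times lower than these, and the last pair lay within their spread. In control LM1 Bax led with 97.3 ± 0.45 CPM per kilobase, ahead of Mcl1 (59.9 ± 0.94) and Bak1 (58.1 ± 0.78). Tnfrsf10b (18.9 ± 0.26) and Bid (18.9 ± 1.38) did not differ beyond their spread in LM1. Even after deprivation Bbc3 in LM1 reached 13.4 ± 0.20 CPM per kilobase, below Mcl1, Bax and Bak1.

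Ratios of counts within a library compare a pair of genes without scaling between libraries, although they are not ratios of molecules. Bbc3 counts per Mcl1 count rose from 0.0179 ± 0.0030 to 0.0618 ± 0.0077 (SD, n = 3) in MYAZ16_1e. Myc310 cells moved from 0.0473 ± 0.0049 to 0.101 ± 0.0057, LM1 cells from 0.0438 ± 0.0018 to 0.101 ± 0.0023, and LM1_LM cells from 0.0432 ± 0.0049 to 0.0945 ± 0.0060. Bak1 counts per Mcl1 count went from 0.887 ± 0.026 to 0.722 ± 0.023 in MYAZ16_1e and from 0.682 ± 0.016 to 0.359 ± 0.0089 in LM1. Ranges of the 2 media did not overlap for any of these ratios.

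In control medium the subtypes were compared to ask what distinguishes lines of higher metastatic potential before any deprivation. Bax stood apart most clearly, with about 2-fold more in Myc310, LM and LM_LM than in MYAZ. Bbc3 and Tnfrsf10b were higher as well, Bcl2l11 and Bcl2l1 lower, and Mcl1 was not called in any comparison. At the level of libraries, edgeR called 6 of 9 genes in Myc310 against MYAZ (50.9% of 13795 genes), 8 in LM against MYAZ (60.8%) and 7 in LM_LM against MYAZ (62.8%). With counts summed per line these became 1 gene (Bax), 3 and 3 (Bax, Bcl2l11 and Bcl2l1 in both), where Myc310 is a lone sample assumed to vary like the other lines. With voom and the line as a random block, 1 gene (Bax), 6 (Bbc3, Bcl2l11, Bid, Bax, Bcl2l1 and Tnfrsf10b) and 6 (Bcl2l11, Bid, Bax, Bcl2l1, Bcl2 and Tnfrsf10b) were called. Of all genes, 8.92%, 23.6% and 26.4% were called with counts summed per line (of 16017) and 20.4%, 34.5% and 36.6% with voom (of 13795), in the same order. These 3 comparisons share the MYAZ libraries, and Myc310, LM and LM_LM form a single lineage. Descent from Myc310 and metastatic potential therefore cannot be told apart here. The fits by line, and the permutation test of line means below, treat sister lines as independent. Control replicate 2 of MYAZ12_3i is, like control replicate 3 of MYAZ16_1e, a library whose number is out of run with the others of its line. Leaving out both, an alternative chosen after seeing the data, gave 6, 7 and 7 genes, with Bak1 in LM the call that was lost (adjusted p = 0.0605 in edgeR).

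**Figure D3:**
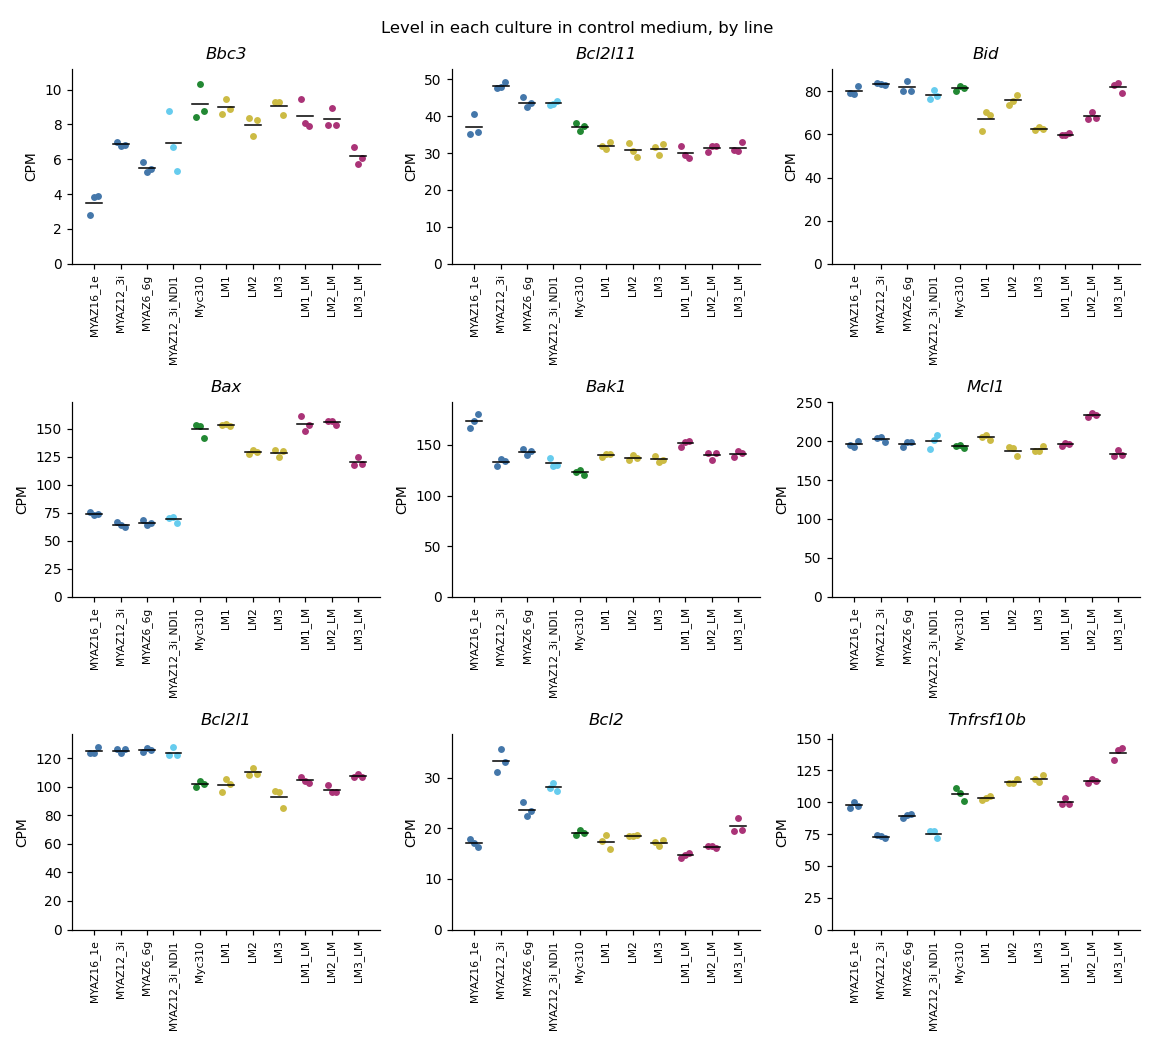
CPM of 9 genes in each culture in control medium, by line (MYAZ blue, MYAZ12_3i_NDI1 light blue, Myc310 green, LM yellow, LM_LM purple). Points are cultures and bars the mean of 3; Bax lies between 62.2 and 75.6 CPM in the MYAZ lines and at 117 CPM or more in Myc310, LM and LM_LM.

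The line means of Bax were 64.4, 65.99 and 73.9 CPM in MYAZ12_3i, MYAZ6_6g and MYAZ16_1e, and 149 CPM in Myc310. They were 153, 129 and 129 CPM in LM1, LM2 and LM3 and 154, 156 and 120 CPM in LM1_LM, LM2_LM and LM3_LM. Every MYAZ line lay below every other line. Relative to MYAZ, Bax differed by 1.13 (Myc310), 1.01 (LM) and 1.06 (LM_LM) on the log2 scale (adjusted p = 1.24e-12, 9.69e-15 and 3.30e-15 in edgeR), and an exact two-sided permutation test of 3 line means against 3 gave p = 0.1 for LM and LM_LM, the smallest value it allows. MYAZ12_3i_NDI1 had 65.8 to 71.1 CPM, within the MYAZ range.

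Of the marker lists of other cell types, the leukocyte and endothelial sums separated MYAZ from the other lines. Fibroblast and alveolar sums overlapped between them. The summed leukocyte list (7 of 10 markers matched, mostly Cd68, with Ptprc near 0) was 4.22 to 6.36 CPM in control MYAZ libraries and 9.43 to 19.7 CPM in control Myc310, LM and LM_LM libraries. The summed endothelial list (7 of 8 matched, with Erg at 0) was 3.57 to 7.08 CPM in MYAZ, mostly Kdr, and 0.141 to 0.967 CPM in the others. Cdh5 did not follow Kdr, with line means of at most 0.0565 CPM in MYAZ and 0.0516 (LM1) to 0.680 CPM (LM3) in the others. Fibroblast markers (10 of 10 matched, Fap at 0) summed to 7.46 to 98.4 CPM in MYAZ, 1.73 to 2.16 CPM in Myc310 and 15.1 to 217 CPM in LM and LM_LM. Alveolar markers (6 of 8 matched, Sftpc and Sftpb at or near 0) summed to 6.41 to 21.4 CPM in MYAZ and 0.499 to 7.04 CPM in the others. Their part in the differences between subtypes was not tested.

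Bbc3 was lowest in MYAZ16_1e (3.51 CPM) and highest in Myc310 (9.15 CPM). The 3 MYAZ lines spanned 3.51 to 6.85 CPM, the LM lines 7.99 to 9.03 CPM and the LM_LM lines 6.18 to 8.47 CPM, so MYAZ and LM_LM lines overlapped. Log2 fold changes against MYAZ were 0.78 in Myc310, 0.71 in LM and 0.51 in LM_LM, and with counts summed per line the adjusted p rose to 0.168, 0.0625 and 0.142. MYAZ16_1e, the MYAZ line used for the deprivation, was separated from the next line in rank, MYAZ6_6g.

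Tnfrsf10b ranged from 73.0 CPM in MYAZ12_3i to 139 CPM in LM3_LM. LM lines (103 to 119 CPM) and LM_LM lines (100.0 to 139 CPM) all lay above the MYAZ lines (73.0 to 97.4 CPM). Log2 fold changes were 0.29, 0.38 and 0.43 for Myc310, LM and LM_LM, and summing per line gave adjusted p-values of 0.369, 0.0864 and 0.0512. The call in Myc310 was also lost without any single replicate number or without MYAZ12_3i.

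Bcl2l11 was higher in the 3 MYAZ lines (37.1 to 48.3 CPM) than in the LM lines (30.7 to 32.0 CPM) and the LM_LM lines (29.95 to 31.5 CPM). The log2 fold change was -0.46 in LM and -0.49 in LM_LM, and -0.22 in Myc310, where the level was 37.2 CPM beside 37.1 CPM in MYAZ16_1e and the call was lost under 7 of the alternatives, with counts summed per line giving an adjusted p of 0.450. Bcl2l1 was tightly held at 125 to 126 CPM in the MYAZ lines and was 92.9 to 110 CPM in LM and 97.9 to 107 CPM in LM_LM, with log2 fold changes of -0.30 in all 3 comparisons. Bcl2 varied within MYAZ from 17.1 CPM in MYAZ16_1e to 33.3 CPM in MYAZ12_3i, a range that took in the Myc310 and LM lines. Compared with MYAZ it differed by -0.38 on the log2 scale in Myc310 (adjusted p = 0.0807 in edgeR, and 0.0308 without control replicate 3 of MYAZ16_1e), by -0.48 in LM and by -0.54 in LM_LM (adjusted p = 0.0014 and 3.80e-04). The call in LM was lost without MYAZ12_3i, with counts summed per line and with voom, and that in LM_LM with counts summed per line (adjusted p = 0.140). Without MYAZ12_3i, the MYAZ line with the most Bcl2, the values were -0.10 in Myc310, -0.20 in LM and -0.27 in LM_LM (adjusted p = 0.565, 0.0829 and 0.0229). Without MYAZ16_1e, the MYAZ line with the least, they were -0.59, -0.69 and -0.75 (adjusted p = 7.69e-04, 1.07e-06 and 2.45e-07), and Bcl2 was then called in Myc310 as well.

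Mcl1 was the steadiest member, between 184 CPM in LM3_LM and 233 CPM in LM2_LM, and 9 of the 10 neighbouring pairs in its order of 11 lines overlapped. Bak1 ran from 123 CPM in Myc310 to 174 CPM in MYAZ16_1e. It was lower in Myc310 than in MYAZ (log2 fold change -0.29, adjusted p = 0.00104 in edgeR), a call lost with counts summed per line and with voom (adjusted p = 0.263 and 0.0663). Its small difference in LM (-0.12) was lost under 12 of 20 alternatives, among them without MYAZ16_1e (-0.0046) and without its control replicate 3 alone (-0.08, adjusted p = 0.0984). Bid was lower in LM (-0.25) and LM_LM (-0.24), but LM3_LM (81.9 CPM) sat among the MYAZ lines (80.2 to 83.5 CPM) and summing per line ended both calls (adjusted p = 0.208 and 0.236 in edgeR), as did leaving out LM1_LM for LM_LM (0.0515).

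The counts of Bax per Bcl2 count collect these differences. MYAZ12_3i had 1.94 ± 0.18, MYAZ6_6g 2.78 ± 0.058 and MYAZ16_1e 4.33 ± 0.16 (SD, n = 3). Myc310 had 7.83 ± 0.40, the LM lines 6.99 to 8.86 and the LM_LM lines 5.90 to 10.53 as line means. All MYAZ libraries (at most 4.51) were below all Myc310, LM and LM_LM libraries (at least 5.65). After deprivation the ratio was 3.67 ± 0.054 in MYAZ16_1e, 5.40 ± 0.49 in Myc310, 8.13 ± 0.96 in LM1 and 10.6 ± 0.69 in LM1_LM.

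None of the 9 genes passed between LM and Myc310 (4.94% of all genes did) or between LM_LM and LM (0.768%). In the former edgeR gave 3 genes an unadjusted p under 0.05, and Bcl2l11 was called by DESeq2 (adjusted p = 0.0397) and by edgeR without control replicate 3 of MYAZ16_1e (0.0342). In the latter no gene had an unadjusted p under 0.05 in edgeR and DESeq2 called 0. The interval for Bax was -0.29 to 0.05 in LM against Myc310 and -0.07 to 0.17 in LM_LM against LM.

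The MYAZ12_3i_NDI1 line was compared with its parent MYAZ12_3i, with 17.4% of 12841 genes called. Bcl2l11 was 43.1 to 44.2 CPM against 47.7 to 49.4 CPM (log2 fold change -0.16, adjusted p = 0.0161) and Bcl2 27.5 to 28.9 CPM against 31.2 to 35.7 CPM (-0.25, adjusted p = 0.00905). Neither overlapped its parent. Without the replicates numbered 2 or those numbered 3 no call remained. Without the parent's replicate 2 alone, the library whose number is out of run, both genes were called (adjusted p = 0.041 for Bcl2l11 and 0.0499 for Bcl2 in edgeR), while the calls over all genes went from 2236 to 1480. Bbc3 spread widely in this line, at 8.79, 6.73 and 5.31 CPM, around the parent's 6.97, 6.74 and 6.84 CPM.

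Other genes of the pathway were read from 6 lists. The rest of the BCL2 family (14 of 17 symbols matched, 9 tested) had 6 genes called in MYAZ16_1e on deprivation (3 higher, 3 lower) and 8 in each of the other lines (3 higher, 5 lower), with medians from -0.16 to -0.05, where 53.7% of all genes were called in MYAZ16_1e and 66.8% to 72.4% in the others. Bok, a BAX-like member, fell in all 4 lines, from 45.6 to 26.6 CPM in MYAZ16_1e (log2 fold change -0.79), 122 to 44.4 CPM in Myc310 (-1.47), 98.1 to 22.12 CPM in LM1 (-2.11) and 92.7 to 16.6 CPM in LM1_LM (-2.44). Bcl2l2, the gene of the anti-apoptotic BCL-w, rose by 0.40, 0.73, 0.77 and 0.76 in that order. Its symbol stands on 2 identifiers in the count table, and the one that GENCODE names Bcl2l2 was used. Bcl2l12 fell by 0.39, 0.52, 0.89 and 0.83. Bmf, a BH3-only gene, was near the floor in LM1 and LM1_LM, at 7 to 11 and 11 to 18 counts in control medium and 1 to 2 and 0 to 1 counts after deprivation, and no fold change is given for it.

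Of 16 death receptor, ligand and adaptor genes 12 were tested, and 9, 7, 9 and 10 were called in MYAZ16_1e, Myc310, LM1 and LM1_LM, with medians between -0.14 and 0.03. These shares of 75.0%, 58.3%, 75.0% and 83.3% stand beside 53.7%, 66.8%, 71.1% and 72.4% of all genes. The decoy TRAIL receptor gene Tnfrsf22 fell with Tnfrsf10b, by 0.84, 1.04, 1.498 and 1.64. Tnfrsf21, which encodes DR6, fell by 0.35, 0.71, 1.68 and 1.89. Cflar, the gene of the caspase-8 inhibitor c-FLIP, rose by 0.36, 0.70, 1.12 and 1.14, and Traf2, an adaptor of TNF receptors, by 0.42, 0.80, 0.97 and 1.12. The ligand genes Fasl, Tnf and Tnfsf10 (TRAIL) were below the filter in the deprivation model.

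The apoptosome and caspase list leaned downward. All 11 genes were tested, and none rose and 5 fell in MYAZ16_1e, none rose and 11 fell in Myc310, none rose and 7 fell in LM1, and 1 rose and 7 fell in LM1_LM. Medians were -0.11, -0.43, -0.52 and -0.54, beside medians of about 0 over all genes, of which 27.1% to 35.9% were called lower. Casp6 fell by 0.34, 1.21, 1.11 and 1.07, and Aifm1, a mitochondrial flavoprotein gene, by 0.33, 0.75, 0.76 and 0.82. Endog, a mitochondrial nuclease gene, fell by 0.71, 1.28 and 0.95 in Myc310, LM1 and LM1_LM.

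IAPs and their antagonists (8 of 8 tested) were split, with 2, 6, 8 and 8 called and medians from -0.03 to 0.09. These shares of 25.0%, 75.0%, 100.0% and 100.0% stand beside 53.7%, 66.8%, 71.1% and 72.4% of all genes. Birc2, an E3 ligase gene, rose by 0.24, 0.34, 0.37 and 0.34, and Diablo, whose product releases caspases from IAPs, by 0.43, 0.60 and 0.64 in Myc310, LM1 and LM1_LM. Birc3 and Septin4 fell in LM1 (-0.63 and -0.90) and LM1_LM (-0.88 and -1.14).

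Of the list of p53 and its targets (12 of 12 tested), 8 rose and 3 fell in MYAZ16_1e, with a median of 0.60 (0.56 with Eda2r at its bound), against 4 and 6 in Myc310 and 5 and 6 in both LM1 and LM1_LM (medians -0.13, -0.15 and -0.07). Of all genes, 26.6% were called higher and 27.1% lower in MYAZ16_1e, and 32.8% to 36.5% higher and 33.9% to 35.9% lower in the other lines. Sesn2, which is also a known ATF4 target, rose from 19.6 to 213 CPM in MYAZ16_1e and from 46.5 to 223 CPM in LM1 (3.44 and 2.29). Cdkn1a, the gene of p21, rose by 1.70, 1.23, 1.64 and 1.64, and Sesn1 fell by 0.55, 1.18, 0.96 and 1.10. In control medium this list was higher in Myc310, LM and LM_LM than in MYAZ, with 9, 10 and 10 genes higher, 1, 2 and 2 lower and medians of 1.10, 1.29 and 1.38. Of all genes there, 23.8%, 30.3% and 30.5% were called higher and 27.1%, 30.5% and 32.3% lower, with medians between -0.02 and 0.00. These calls treat cultures of a line as replicates, and the list was not tested with counts summed per line. Eda2r had 0 to 11 counts in MYAZ libraries in control medium and 20.1 to 44.7 CPM as line means in the others, and Cdkn1a was higher by 1.76, 2.58 and 2.63.

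The CHOP and ATF4 arm rose as a whole. All 8 genes were called higher in all 4 lines, with medians of 2.92, 3.96, 4.56 and 4.55, beside 26.6% to 36.5% of all genes called higher. Ddit3, the gene of CHOP, went from 3.65 to 42.9 CPM in MYAZ16_1e and from 2.00 to 59.0 CPM in LM1 (3.53 and 4.91). Trib3, a CHOP target, rose by 4.90, 3.98, 5.08 and 4.98, and Chac1, which degrades glutathione, by 5.94, 5.81, 6.41 and 6.31. Atf3 went from 1.58 to 33.4 CPM in MYAZ16_1e and from 0.329 to 167 CPM in LM1 (4.37 and 8.97). This list was chosen with the strong response of these samples known, so its direction is not independent evidence.

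**Figure D4:**
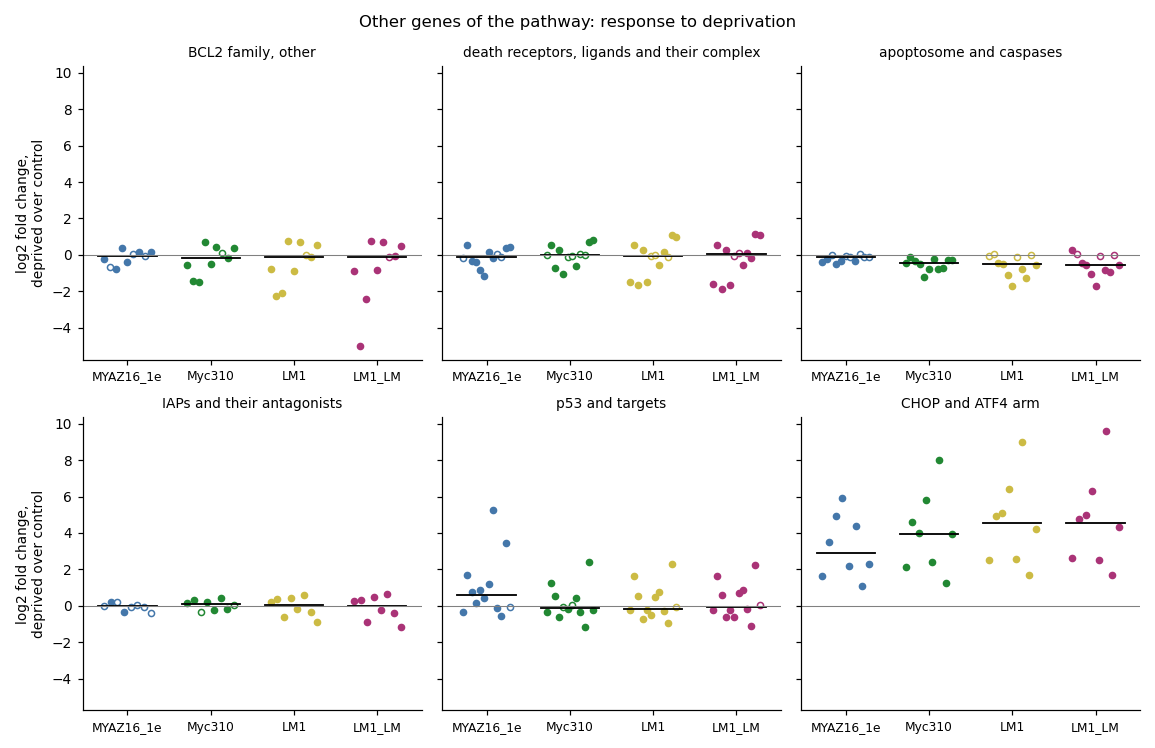
Log2 fold change of deprived over control medium for the tested genes of 6 pathway lists in 4 lines. Each point is a gene (filled, adjusted p under 0.05 in edgeR; open, not), and bars are medians; the CHOP and ATF4 list lies above 0 throughout (medians 2.92 to 4.56), and apoptosome and caspase medians lie between -0.54 and -0.11.

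The genes whose mean log2 CPM over the 15 groups of line and medium followed a member most closely were ranked by Pearson's r, as a description over groups that share lines and libraries. Among 8962 genes, Bbc3 was followed by Xpot (r = 0.978), Pdzd8 (0.977) and Ankzf1 (0.974). Mcl1 was followed by Maip1 (0.971), Zranb1 (0.969) and Ube2d3 (0.969), and Tnfrsf10b, among the genes reported here, by Tasor (0.933) and Ybx3 (0.931). Pmaip1 was followed by Acad11 (0.905), Aox1 (0.876) and Ltbp3 (0.870), at counts where most of its groups were at 0. Among the members, the pairs most alike were Bcl2l11 with Bcl2 (r = 0.848), Bbc3 with Mcl1 (0.845) and Bcl2l11 with Bid (0.843), and the most opposed were Bbc3 and Bak1 (-0.889).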

How the data were processed

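Polyadenylated RNA of 45 cultures was sequenced from directional libraries. The authors aligned reads with STAR and quantified them with RSEM in the nf-core RNA-seq pipeline (STAR and RSEM versions not given in the sources used here; GRCm38, DESeq2 1.38.3 and R 4.2.2 are named in the submitters' processing notes), and deposited a raw count per gene and library. The deposited values were whole numbers and needed no rounding. Whether strand was used in counting is not given in the sources used here.

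Counts were scaled by TMM and fitted with edgeR 4.0.16 (quasi-likelihood test, R 4.3.3) in 3 models, for deprivation (24 libraries), control medium (30) and MYAZ12_3i_NDI1 (6), with Benjamini-Hochberg adjustment over all genes tested and genes filtered by edgeR's default expression filter. Alternatives were RLE and upper-quartile scaling, other filters, DESeq2 1.42.0, voom with line as random block (limma 3.58.1), a replicate block, counts summed per line, and leaving out replicates and lines. Fits of the control and NDI1 models without single libraries of MYAZ12_3i and MYAZ16_1e were added after seeing the data. Line means were compared by exact permutation (scipy 1.17.1). Depth was 19517859 to 29019988 counts per library, and no pair of libraries held identical counts. Replicate numbers did not pair the cultures (correlations of same-numbered deviations from -0.134 to 0.126).

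All 10 member genes were described. Further genes were named by a rule, as up to 4 genes of each list with the largest absolute mean log2 fold change over the deprivation comparisons among those called in at least 1, and the 3 genes most like Bbc3, Tnfrsf10b, Pmaip1 and Mcl1. Some genes that this rule names are not reported here. The ligand genes at low counts were chosen after their values were seen. Members, lists and the rule were chosen with earlier results of these data known. The scripts were tested on simulated data. Gene lengths are merged exon lengths, and a count floor of 3 was used where no library of a group exceeded 3 counts.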

Additional observations from a re-analysis of the deposited data

Results flagged for a closer look

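The response to deprivation differed between lines in edgeR's test of the difference itself (Benjamini-Hochberg adjusted p under 0.05), each time against MYAZ16_1e, whose libraries all 3 contrasts share. In Myc310 the differences in log2 fold change were -0.31 for Bcl2l11, -0.34 for Bid, -0.33 for Bax, -0.16 for Bak1, 0.37 for Mcl1, 0.17 for Bcl2l1 and 0.33 for Tnfrsf10b. In LM1 they were -0.78 for Bcl2l11, -0.75 for Bid, -0.33 for Bax, -0.16 for Bak1, 0.47 for Mcl1, -0.45 for Bcl2 and 0.20 for Tnfrsf10b. In LM1_LM they were -0.72 for Bcl2l11, -0.79 for Bid, -0.34 for Bax, -0.19 for Bak1, 0.58 for Mcl1, -0.60 for Bcl2 and 0.16 for Tnfrsf10b. Bcl2l11, Bid and Bcl2 were called higher in MYAZ16_1e and lower in LM1 and LM1_LM, with Bcl2l11 in MYAZ16_1e and Bcl2 in LM1 lost under some alternatives.

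Pmaip1 reached 0.866 CPM in MYAZ12_3i replicate 1, far from the other 8 control libraries of the MYAZ lines by Dixon's test. The usual rate of about 1 in 20 flagged by chance assumes a single population. These libraries pool MYAZ16_1e, MYAZ6_6g and MYAZ12_3i, with means of 0.0167, 0.184 and 0.515 CPM, so that rate need not hold. The value rests on 21 counts.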

How the results depend on the processing

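The 77 single-gene results called at first kept their direction under all 997 alternatives run on them and lost the call in 73. The 40 not called changed sign in 43 of 614 alternatives and were called in 12, of which 1 had the opposite sign, Mcl1 in LM_LM against MYAZ without line LM2_LM (-0.0758, adjusted p = 0.0209 in edgeR, against 0.02 with all lines). Counts of members called on deprivation ranged from 6 to 7 in MYAZ16_1e, 5 to 8 in Myc310, 8 to 9 in LM1 and stayed at 9 in LM1_LM when replicates were left out. Against MYAZ in control medium, summing counts per line left 1 of 6 members in Myc310, 3 of 8 in LM and 3 of 7 in LM_LM, while voom left 1 in Myc310, 6 in LM and 6 in LM_LM. Over all genes, summing took LM against MYAZ from 8385 to 3788 calls and LM_LM against MYAZ from 8661 to 4226. LM against Myc310 went from 0 members to 1 with DESeq2 (Bcl2l11) and to 1 without line LM2 (Bid) or, in fits added after seeing the data, without MYAZ16_1e control replicate 3, with or without MYAZ12_3i control replicate 2 (Bcl2l11), and LM_LM against LM from 0 to 2 without line LM3_LM (Bax and Mcl1). MYAZ12_3i_NDI1 went from 2 to 1 with DESeq2 and to between 0 and 1 when the replicates of 1 number were left out. The cause was not tested, apart from the fewer samples in summed or reduced fits. A fit with the replicate block changed 1 of 117 member calls (Bcl2 in LM1, adjusted p = 0.0529). Depth limits Pmaip1, and cultures of a line are technical replicates.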
